A study of Mus musculus with 17 samples.

Results

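The interferon receptor and JAK-STAT pathway was followed here through 9 genes, chosen by name from the 31091 gene identifiers of the count table. They were the receptor chains Ifnar1, Ifnar2 and Ifngr1, the receptor-bound kinases Jak1 and Tyk2, the transcription factors Stat2, Irf9 and Irf7, and the inhibitor Socs1. Each was matched by its Ensembl identifier, and all 9 passed the filter on low counts in every fit, the lowest single value being 496 reads for Ifnar2 in 1 cDC1 library.

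Sorted conventional dendritic cells (cDCs) of both splenic subsets were compared after 6 h with medium from live, apoptotic or necroptotic tumor cells. The cells came from spleens of female young adult C57BL/6JRj mice that carried B16-FLT3L tumors, which expand the DC pool, so every group shared the tumor and the FLT3L. Spleens of a pair of mice or more were pooled per experiment, CD11c+ cells were cultured with GM-CSF, and the medium that had covered the tumor cells, debris included, was added to them. The donors of this medium were TC-1, a tumor line of mouse lung epithelium, and lines made from it. The iBimS and iRIPK3 lines were made by lentiviral transduction and cloning of single cells. Line and kind of cell death therefore cannot be told apart. The medium came from TC-1 WT cells (live, called WT), TC-1-iBimS cells (apoptotic, BimS) or TC-1-iRIPK3 cells (necroptotic, RIPK3), all of them treated with the inducer cumate, controls included. After the culture cDC1s were sorted as XCR1+CD8α+ and cDC2s as SIRPα+CD11b+ cells. Each group had 3 samples except cDC2s with RIPK3 medium, which had 2. Nothing in the labels says that same-group samples came from separate cultures or animals, so p-values measure the spread between these samples.

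Type I interferons bind a receptor of IFNAR1 and IFNAR2, which carry the kinases TYK2 and JAK1. These phosphorylate STAT2, which with IRF9 forms part of ISGF3, a complex that binds interferon-stimulated response elements (ISREs) in the promoters of interferon-stimulated genes. Interferon-γ binds IFNGR1 and IFNGR2, signals through JAK1 and JAK2, and acts on genes with gamma-activated sites (GAS). Stat2, Irf9 and Irf7 are themselves interferon-stimulated genes in many cells, and SOCS1 is an induced inhibitor that binds JAK1 and TYK2 and limits both arms. In dendritic cells the type I arm is known for its part in maturation and in cross-presentation by cDC1s.

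Libraries held 16095159 to 21645289 counted reads (median 18986002). Values are CPM, read counts relative to the library total scaled by TMM factors, so they compare libraries but not genes, unless divided by transcript length. Both labelled cell types expressed their own markers. Summed cDC1 markers lay between 1237 and 1413 CPM in cDC1 libraries and between 69.1 and 112.4 CPM in cDC2 libraries, where Wdfy4 and Batf3 made up most of the sum. The sums of cDC2 markers lay between 285 and 373 CPM in cDC2 libraries and between 2.11 and 4.02 CPM in cDC1 libraries.

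Stat2 and Irf9, which encode ISGF3 subunits, fell with both kinds of debris in both subsets. Irf7, the interferon-driven factor, fell with both in cDC2s and with RIPK3 medium in cDC1s, the last a call lost without most single cDC1 samples. With BimS medium in cDC1s all its samples also lay below the WT samples. That fall was not called by edgeR, but it was by DESeq2, limma and the replicate block. Stat2 was also lower with RIPK3 than with BimS medium in cDC1s, while edgeR did not call the differences of Irf9 and Irf7 between these media. Socs1 rose with both kinds of debris in cDC1s and missed the threshold in cDC2s. Against WT medium the receptor chains and kinases differed by less than these 4 genes did. In cDC1s edgeR called Ifnar1 and Ifngr1 lower with BimS than with WT medium. It called Ifnar2 and Ifngr1 higher there with RIPK3 than with BimS medium. Of the 5 receptor and kinase genes it called none in any medium comparison of cDC2s. With the replicate number as a block, each of these 5 and Socs1 was called in at least 1 medium comparison of cDC2s, and Irf7 between RIPK3 and BimS medium in both subsets. Members were tested together with all genes by edgeR's quasi-likelihood test with Benjamini-Hochberg adjustment over all genes tested, and called at an adjusted p under 0.05. All adjusted p-values are from this test unless another is named. Same-numbered samples of 1 cell type deviated together, so a fit with the replicate number as a block is given where it changes a call. The smallest p-values of that fit cannot come from the few samples of 1 gene alone. They rest on a spread that edgeR's test shares between genes, so their size does not measure that gene's own spread. For Irf7 in cDC1s with BimS medium the block took the SE from 0.21 to 0.051.

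In cDC1s, 5 of 9 members were called between BimS and WT medium, 1 higher and 4 lower, beside 13.2% of all genes tested (7.31% higher, 5.89% lower). Between RIPK3 and WT medium 4 of 9 were called, 1 higher and 3 lower, beside 16.5% of all genes (8.34% higher, 8.19% lower). Between RIPK3 and BimS medium it was 3 of 9, 2 higher and 1 lower, beside 4.15% (1.94% higher, 2.21% lower). In cDC2s, 3 of 9 members fell between BimS and WT medium beside 7.01% of all genes called (3.80% higher, 3.21% lower). The same count fell between RIPK3 and WT medium, beside 7.21% called (3.93% higher, 3.28% lower). Between RIPK3 and BimS medium in cDC2s edgeR called 0 of 9, beside 0.379% of all genes (0.161% higher, 0.218% lower), with 2 of 9 at an unadjusted p under 0.05 and 0 by DESeq2 or limma. With the replicate block the member counts in the same order were 6, 5, 6, 7, 6 and 5, beside 17.9%, 21.0%, 8.87%, 21.3%, 21.4% and 14.3% of all genes. All these shares include weakly expressed genes, and none of the 9 members was weakly expressed. Restricted to genes whose mean log2 CPM reached 3, edgeR without the block called 25.84%, 31.68% and 9.01% in cDC1s. In cDC2s these shares were 13.24%, 13.58% and 0.771%. The all-gene shares printed beside other gene lists below likewise include weakly expressed genes. The groups did not overlap for 7, 5 and 4 members in the 3 cDC1 comparisons, beside 29.5%, 29.9% and 19.2% of all genes. In cDC2s this held for 4, 7 and 4 members, beside 23.0%, 34.1% and 26.8%. The WT samples are shared by the comparisons with BimS and RIPK3 medium within a cell type, so the 2 results are not independent of each other.

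**Figure D1:**
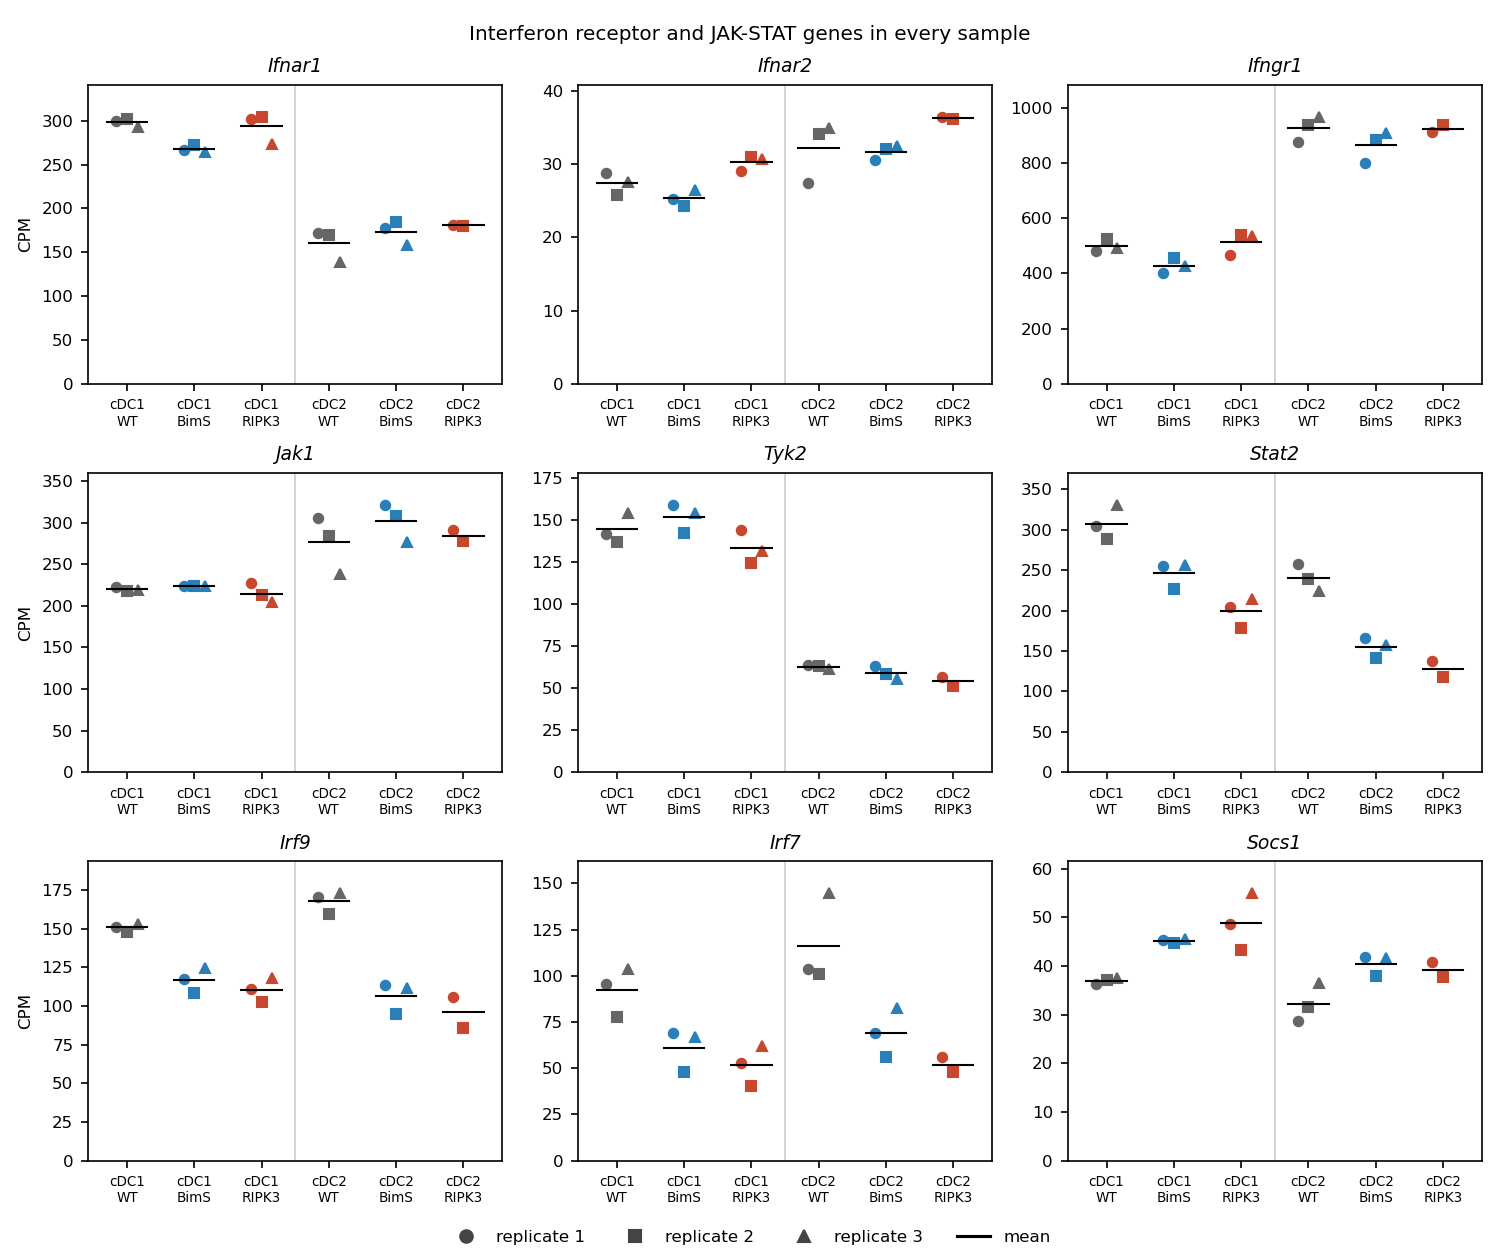
Level of each of the 9 members in every library (y axis, TMM-scaled CPM, a scale of its own per gene) by cell type and medium (x axis), with symbols for the replicate number and a line at the group mean. Stat2, Irf9 and Irf7 step down from WT over BimS to RIPK3 medium in both subsets, while Tyk2 and Ifngr1 separate the subsets.

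Ifnar1 encodes the IFNAR chain that carries TYK2 (ENSMUSG00000022967, chr16:91281942-91305789, plus strand, GRCm39). In cDC1s its level was 300.2, 301.9 and 293.1 CPM with WT medium, 267.1, 272.1 and 264.9 CPM with BimS medium, and 301.9, 304.9 and 273.9 CPM with RIPK3 medium. All 3 BimS samples lay below every WT and every RIPK3 sample, while WT and RIPK3 samples overlapped. Ifnar1 fell by 10.2% with BimS medium (log2 fold change -0.15 ± 0.048 SE, adjusted p = 0.0253), a call that was lost without any 1 of the 3 WT samples or BimS samples 1 or 3, and with limma (adjusted p over alternatives 0.0018 to 0.321). Between RIPK3 and BimS medium the difference was 0.13 (adjusted p = 0.135), which passed with the replicate block (adjusted p = 0.0234, range over alternatives 0.00571 to 0.907).

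In cDC2s the Ifnar1 level was 172, 169.2 and 139.4 CPM with WT medium, 178.2, 184.1 and 158.7 CPM with BimS medium, and 181.2 and 180.3 CPM with RIPK3 medium. BimS and WT samples overlapped, and both RIPK3 samples lay above the WT samples. Neither difference from WT was called, at 0.11 (adjusted p = 0.586) with BimS and 0.16 (adjusted p = 0.447) with RIPK3 medium, the first of which passed with the replicate block (adjusted p = 0.0403, highest over alternatives 0.941).

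Ifnar2, the partner chain that carries JAK1 (ENSMUSG00000022971, chr16:91169618-91202723, plus strand), had the fewest reads of the members. In cDC1s it was at 28.84, 25.84 and 27.58 CPM with WT, 25.26, 24.26 and 26.5 CPM with BimS, and 29.08, 31.07 and 30.79 CPM with RIPK3 medium. RIPK3 samples were the highest and did not overlap with either other group. Ifnar2 rose by 19.6% from BimS to RIPK3 medium (log2 fold change 0.26 ± 0.072 SE, adjusted p = 0.0311), a call lost without any 1 BimS sample, without RIPK3 sample 2 and with limma (range over alternatives 0.00431 to 0.586). Against WT medium it was at -0.11 with BimS (adjusted p = 0.380) and 0.14 with RIPK3 medium (adjusted p = 0.195).

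In cDC2s Ifnar2 was at 27.4, 34.19 and 35.02 CPM with WT, 30.6, 32.08 and 32.57 CPM with BimS, and 36.54 and 36.16 CPM with RIPK3 medium. WT sample 1 was the lowest, and both RIPK3 samples lay above all others. With RIPK3 medium the difference was 0.17 from WT (adjusted p = 0.492) and 0.19 from BimS (adjusted p = 0.675), both of which passed with the replicate block (adjusted p = 0.0397 and 0.0313, highest over alternatives 0.997 and 0.956).

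Ifngr1 encodes the ligand-binding chain of the interferon-γ receptor (ENSMUSG00000020009, chr10:19467697-19485977, plus strand). Its level in cDC1s was 482.4, 526.9 and 491.2 CPM with WT, 401.6, 456.6 and 427.9 CPM with BimS, and 465.6, 541.4 and 537.4 CPM with RIPK3 medium. The BimS samples were below all others, and RIPK3 samples overlapped with WT. Ifngr1 fell by 14.3% with BimS medium (log2 fold change -0.22 ± 0.056 SE, adjusted p = 0.0066) and was 20.0% higher with RIPK3 than with BimS medium (0.26 ± 0.056, adjusted p = 0.00496). Both calls were lost with limma on unnormalised log counts (adjusted p = 0.091 and 0.456, lowest over alternatives 9.24e-07 and 3.62e-08), and the second without RIPK3 sample 3 (adjusted p = 0.0758).

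In cDC2s Ifngr1 was at 878.7, 937.7 and 969.4 CPM with WT, 801.4, 883.9 and 908.7 CPM with BimS, and 913.7 and 937 CPM with RIPK3 medium. BimS and RIPK3 samples overlapped with WT samples, and the RIPK3 samples lay just above all BimS samples. BimS was at -0.10 from WT (adjusted p = 0.533) and RIPK3 at 0.09 from BimS (adjusted p = 0.816), which passed with the replicate block at adjusted p = 0.0314 and 0.0492 (highest over alternatives 0.867 and 0.987).

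Jak1, the kinase shared by both interferon receptors (ENSMUSG00000028530, chr4:101008838-101122487, minus strand), varied little in cDC1s. Levels were 222.4, 217.8 and 219 CPM with WT, 224.2, 223.2 and 223.7 CPM with BimS, and 227.5, 212.4 and 204.2 CPM with RIPK3 medium. BimS samples lay just above all WT samples, at a difference of 0.03 (adjusted p = 0.839), and RIPK3 samples spanned both groups. In cDC2s Jak1 was at 306, 284.3 and 238.6 CPM with WT, 321.2, 308.1 and 277.1 CPM with BimS, and 290.6 and 277.9 CPM with RIPK3 medium. Replicate 3 was the lowest with WT and with BimS medium, and the groups overlapped. With BimS medium the difference was 0.13 from WT (adjusted p = 0.535), and RIPK3 was at -0.10 from BimS (adjusted p = 0.852). Both passed with the replicate block, at adjusted p = 0.0101 and 0.00322 (highest over alternatives 0.921 and 0.980).

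Tyk2, the kinase bound to IFNAR1 (ENSMUSG00000032175, chr9:21015363-21042689, minus strand), was at 141.8, 137 and 154.2 CPM in cDC1s with WT, 158.9, 142.2 and 154.1 CPM with BimS, and 143.8, 124.2 and 131.7 CPM with RIPK3 medium. RIPK3 samples tended to the low side and overlapped with both other groups. RIPK3 was at -0.19 ± 0.057 SE from BimS (adjusted p = 0.058) and -0.12 from WT (adjusted p = 0.195), and both differences passed with the replicate block (adjusted p = 0.00143 and 0.0497, ranges over alternatives 0.00143 to 0.309 and 0.0317 to 0.629).

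In cDC2s Tyk2 was at 63.83, 63.1 and 61.24 CPM with WT, 63.14, 58.26 and 55.53 CPM with BimS, and 56.72 and 51.28 CPM with RIPK3 medium. The RIPK3 samples lay below all WT samples, and BimS samples lay between and overlapped with both. The difference between RIPK3 and WT medium was -0.23 ± 0.097 (adjusted p = 0.208), and passed with the replicate block (adjusted p = 0.000651, highest over alternatives 0.680).

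**Figure D2:**
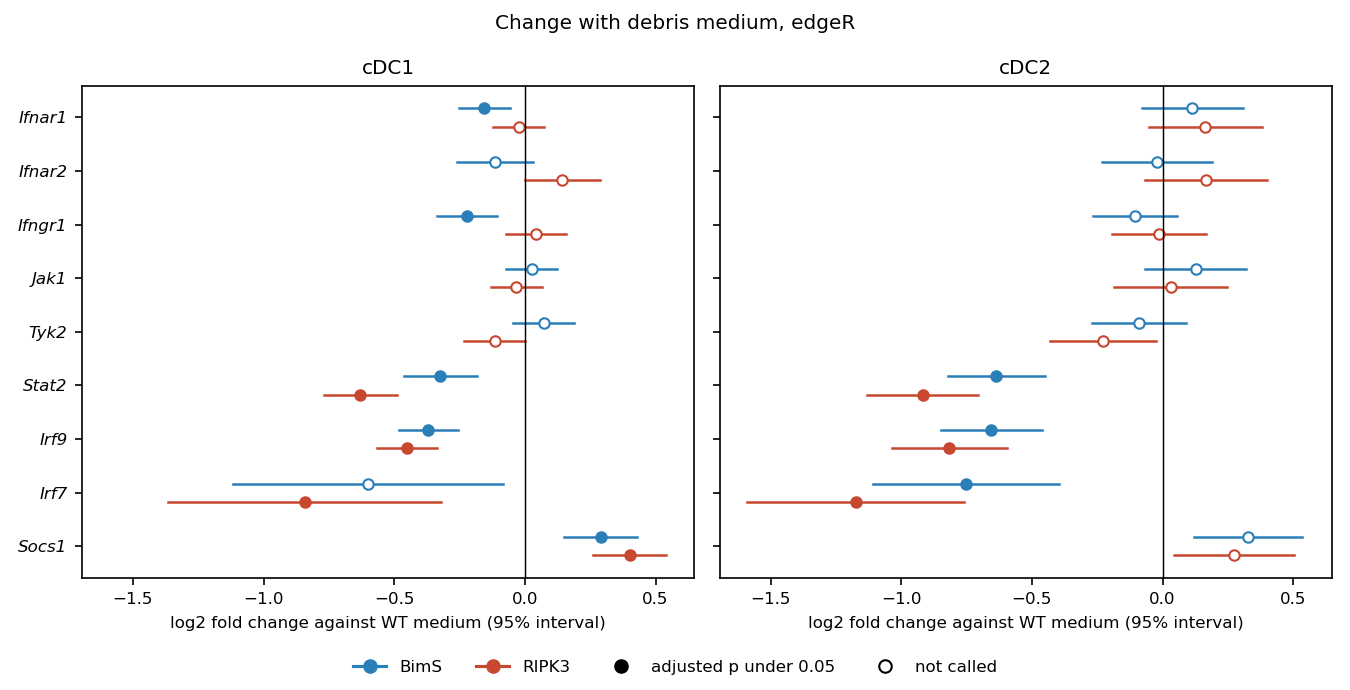
Log2 fold change against WT medium with its 95% interval (x axis) for each member (y axis) with BimS and RIPK3 medium, in cDC1s and cDC2s. Filled points passed the adjusted p of 0.05. Stat2, Irf9 and Irf7 lie left of 0 and Socs1 right of 0 in both subsets. Receptor and kinase changes are smaller, and most of their intervals include 0. The intervals of Ifnar1 and Ifngr1 with BimS medium in cDC1s, both filled points, lie below 0. So does that of Tyk2 with RIPK3 medium in cDC2s, which is not filled.

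Stat2, the STAT that pairs with IRF9 in ISGF3 (ENSMUSG00000040033, chr10:128106352-128128735, plus strand), fell in all 4 comparisons of debris with WT medium. In cDC1s its level was 304.3, 288.1 and 330.8 CPM with WT, 255.4, 226.4 and 256.1 CPM with BimS, and 204.3, 178.8 and 214 CPM with RIPK3 medium. The 3 groups did not overlap, in the order WT, BimS, RIPK3. It fell by 20.1% with BimS medium (log2 fold change -0.32 ± 0.066 SE, adjusted p = 0.00183) and fell by 35.4% with RIPK3 medium (-0.63 ± 0.067, adjusted p = 6.06e-07). RIPK3 medium also gave a lower level than BimS medium (-0.31 ± 0.067, adjusted p = 0.0106), and this call was lost without BimS sample 1 (adjusted p = 0.0532) or BimS sample 3 (adjusted p = 0.0529). In bulk libraries of a sorted population, fewer cells with a transcript and less of it per cell cannot be told apart.

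In cDC2s Stat2 was at 257.2, 239.3 and 224.5 CPM with WT, 165.9, 140.9 and 158 CPM with BimS, and 137.9 and 118.3 CPM with RIPK3 medium. All WT samples lay well above the other samples, and the RIPK3 samples lay below all BimS samples. Stat2 fell by 35.7% with BimS medium (log2 fold change -0.64 ± 0.088, adjusted p = 7.5e-05) and by 47.1% with RIPK3 medium (-0.92 ± 0.10, adjusted p = 3.87e-06). RIPK3 was at -0.28 ± 0.10 from BimS medium (adjusted p = 0.371), and at -0.31 with the replicate block (adjusted p = 4.42e-07, highest over alternatives 0.956).

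Irf9 encodes the DNA-binding subunit of ISGF3 (ENSMUSG00000002325, chr14:55841028-55847812, plus strand). In cDC1s it was at 151.2, 148.1 and 153.3 CPM with WT, 117.6, 108.2 and 124.8 CPM with BimS, and 111, 102.5 and 117.9 CPM with RIPK3 medium. The WT samples stood above all others, and BimS and RIPK3 samples overlapped. Irf9 fell by 22.6% with BimS medium (log2 fold change -0.37 ± 0.056, adjusted p = 4.72e-06) and fell by 26.9% with RIPK3 medium (-0.45 ± 0.056, adjusted p = 8.43e-08), while RIPK3 was at -0.08 from BimS medium (adjusted p = 0.547).

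In cDC2s Irf9 was at 170.3, 159.7 and 172.9 CPM with WT, 113.5, 94.77 and 111.7 CPM with BimS, and 105.9 and 85.91 CPM with RIPK3 medium. Again the WT samples stood apart and the debris groups overlapped with each other. Irf9 fell by 36.5% with BimS medium (log2 fold change -0.66 ± 0.092, adjusted p = 8.66e-05) and fell by 43.2% with RIPK3 medium (-0.82 ± 0.11, adjusted p = 2.51e-05). RIPK3 was at -0.16 from BimS medium (adjusted p = 0.703). Exons of Irf9 overlap with those of Rnf31 on the same strand, whose 22382 reads over all libraries compare with 40702 for Irf9, and Rnf31 was called in 1 medium comparison, RIPK3 against WT in cDC1s, at -0.19 (adjusted p = 0.0195). Reads in the shared stretch may have gone to either gene.

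Irf7, the factor that drives interferon-α transcription and is raised by interferon in turn (ENSMUSG00000025498, chr7:140842619-140846398, minus strand), had the largest fold changes of the 9 members against WT medium in both subsets, and the largest spread. In cDC1s its level was 95.7, 77.84 and 103.9 CPM with WT, 68.8, 47.77 and 66.82 CPM with BimS, and 52.71, 40.41 and 62.09 CPM with RIPK3 medium. WT samples lay above all debris samples, and BimS and RIPK3 samples overlapped. Replicate 2 was the lowest in every one of the 6 groups. With BimS medium the difference was -0.60 ± 0.21 (adjusted p = 0.149), which passed with the replicate block (adjusted p = 1.16e-20), with limma (adjusted p = 1.77e-07) and with DESeq2 (adjusted p = 0.0301), the highest over alternatives being 0.359. With RIPK3 medium Irf7 fell by 44.3% (log2 fold change -0.84 ± 0.22, adjusted p = 0.0457). This call was lost without any 1 WT sample, BimS sample 1 or 3, or RIPK3 sample 1 or 2 (adjusted p 0.0567 to 0.144), and with no filter on low counts (adjusted p = 0.0682), and was at adjusted p = 1.65e-31 with the replicate block. RIPK3 was at -0.24 from BimS medium (adjusted p = 0.719), which passed with the block (adjusted p = 0.000446, highest over alternatives 0.928).

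In cDC2s Irf7 was at 103.6, 100.9 and 144.6 CPM with WT, 69.04, 56.08 and 82.61 CPM with BimS, and 55.94 and 47.82 CPM with RIPK3 medium. Each medium formed a group of its own without overlap, in the order WT, BimS, RIPK3. Irf7 fell by 40.6% with BimS medium (log2 fold change -0.75 ± 0.16, adjusted p = 0.017), a call lost without BimS sample 1 (adjusted p = 0.0574). With RIPK3 medium it fell by 55.7% (log2 fold change -1.175 ± 0.19, adjusted p = 0.00263), or by -1.01 on the log2 scale with the replicate block. No RIPK3 sample had number 3, the number of the highest WT sample. RIPK3 was at -0.42 from BimS medium (adjusted p = 0.567), or -0.26 with the replicate block (adjusted p = 0.000722). Exons of Irf7 overlap with Phrf1 on the opposite strand, with 69820 reads over all libraries against 24121 for Irf7, and Phrf1 was called in 0 of the 6 medium comparisons. Whether reads were counted by strand is not given in the sources used here.

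Within a replicate number the 3 factors moved in 1 direction throughout. Stat2, Irf9 and Irf7 were lower in every number in each of the 6 medium comparisons. For Irf7 the log2 difference within a number lay between -0.70 and -0.48 for BimS against WT medium in cDC1s and between -0.94 and -0.74 for RIPK3 against WT. In cDC2s these ranges were -0.85 to -0.59 and -1.08 to -0.89. For Stat2 in cDC1s the range was -0.34 to -0.26 between RIPK3 and BimS medium. Pooled spreads for Irf7 were thus mostly shared by samples of the same number: in cDC1s with WT medium its level was 92.5 ± 13.3 CPM (SD, n = 3), and with RIPK3 medium 51.7 ± 10.9 CPM (SD, n = 3).

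**Figure D3:**
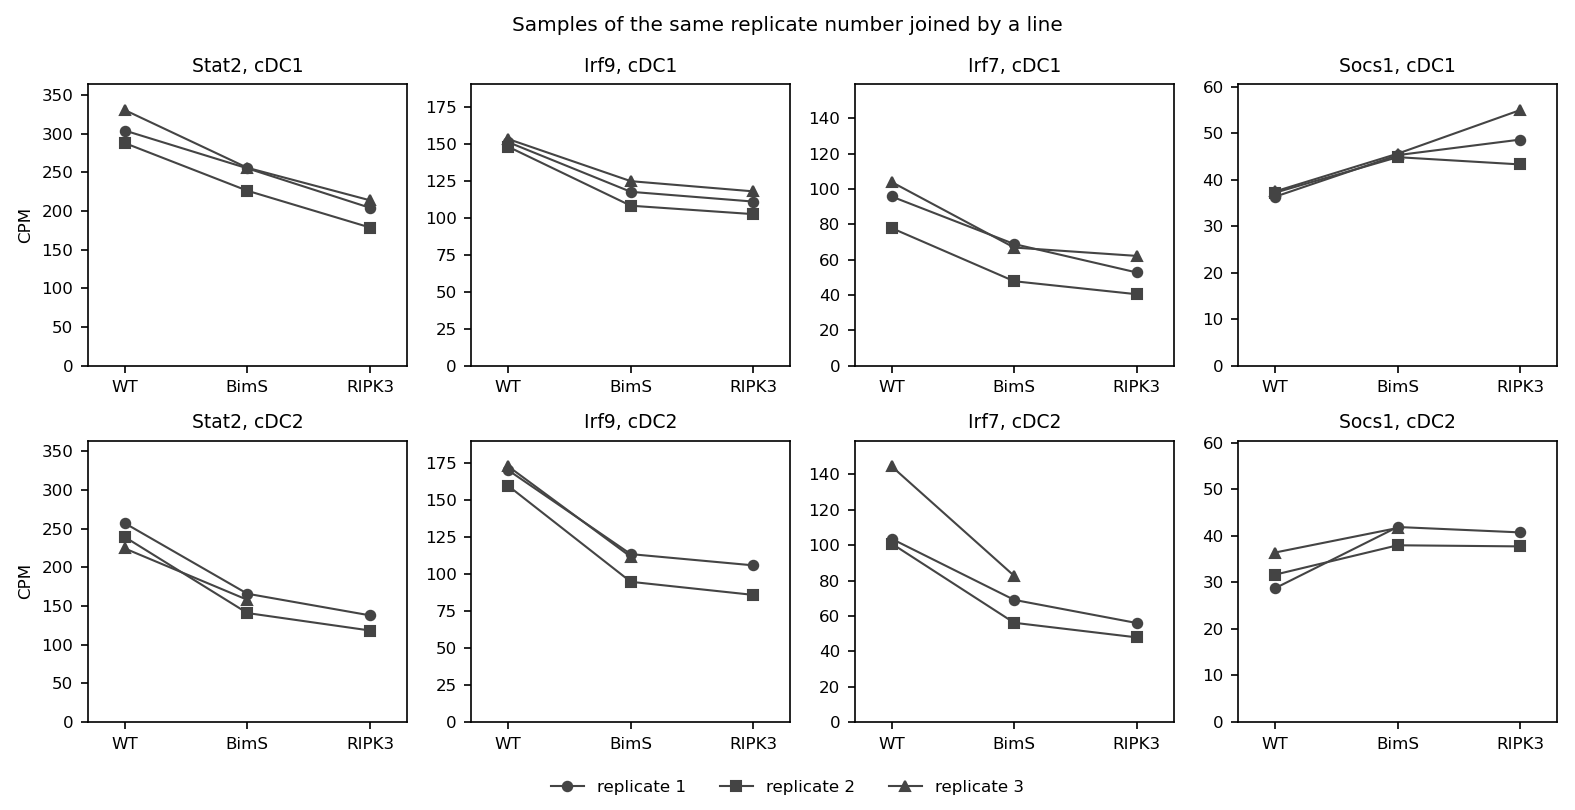
Levels of Stat2, Irf9, Irf7 and Socs1 (y axis, TMM-scaled CPM) by medium (x axis) in cDC1s and cDC2s, with samples of the same replicate number joined. The lines of Stat2, Irf9 and Irf7 go down from WT to BimS to RIPK3 in every number, and those of Socs1 go up from WT to either debris.

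Socs1, the inhibitor of JAK1 and TYK2 (ENSMUSG00000038037, chr16:10600104-10603875, minus strand), went the other way. In cDC1s it was at 36.32, 37.19 and 37.46 CPM with WT, 45.27, 44.83 and 45.58 CPM with BimS, and 48.61, 43.27 and 54.96 CPM with RIPK3 medium. All debris samples lay above all WT samples, and the RIPK3 samples spread around the tight BimS samples. Socs1 rose by 22.3% with BimS medium (log2 fold change 0.29 ± 0.069, adjusted p = 0.00272) and by 32.1% with RIPK3 medium (0.40 ± 0.069, adjusted p = 3.09e-05). With limma on unnormalised log counts both calls were lost (adjusted p = 0.177 and 0.0776, lowest over alternatives 3.41e-05 and 6.74e-09). RIPK3 was at 0.11 from BimS medium (adjusted p = 0.466).

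In cDC2s Socs1 was at 28.74, 31.66 and 36.42 CPM with WT, 41.91, 37.98 and 41.7 CPM with BimS, and 40.75 and 37.74 CPM with RIPK3 medium. WT sample 3 came close to the lowest debris samples without overlap. BimS was at 0.33 ± 0.098 (25.4% higher) from WT, which missed the threshold (adjusted p = 0.0504) and passed with the replicate block (adjusted p = 3.72e-06) and DESeq2 (adjusted p = 0.0343), the highest over alternatives being 0.375. RIPK3 was at 0.27 ± 0.11 (20.8% higher, adjusted p = 0.172), and at adjusted p = 0.000187 with the replicate block (highest over alternatives 0.778).

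To compare genes with each other, mean CPM was divided by the length of the canonical transcript (GENCODE M39). On this per-length scale Ifngr1 was the highest member in all 6 groups, at 203 to 440 CPM per kb. In cDC1s with WT medium Ifnar1 followed at 72.9, Stat2 at 68.3, Irf9 at 54.2, Jak1 at 38.96, Irf7 at 38.6, Tyk2 at 29.3, Socs1 at 11.4 and Ifnar2 at 8.33 CPM per kb. Neighbours in this order whose samples overlapped were Ifnar1 with Stat2, and Jak1 with Irf7. In cDC2s with WT medium the order after Ifngr1 was Irf9 at 60.2, Stat2 at 53.4, Jak1 at 49.0, Irf7 at 48.6, Ifnar1 at 39.1, Tyk2 at 12.7, Socs1 at 9.90 and Ifnar2 at 9.78 CPM per kb. Here Stat2 overlapped with Jak1, Jak1 with Irf7, and Socs1 with Ifnar2. With RIPK3 medium the cDC2 order was Ifngr1, Jak1, Ifnar1, Irf9, Stat2, Irf7, Socs1, Ifnar2 and Tyk2, so Jak1 and Ifnar1 stood above the 3 factors that preceded Ifnar1 with WT medium. Ifnar2 was the lowest member per length in all groups but this one, where it overlapped with Tyk2.

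**Figure D4:**
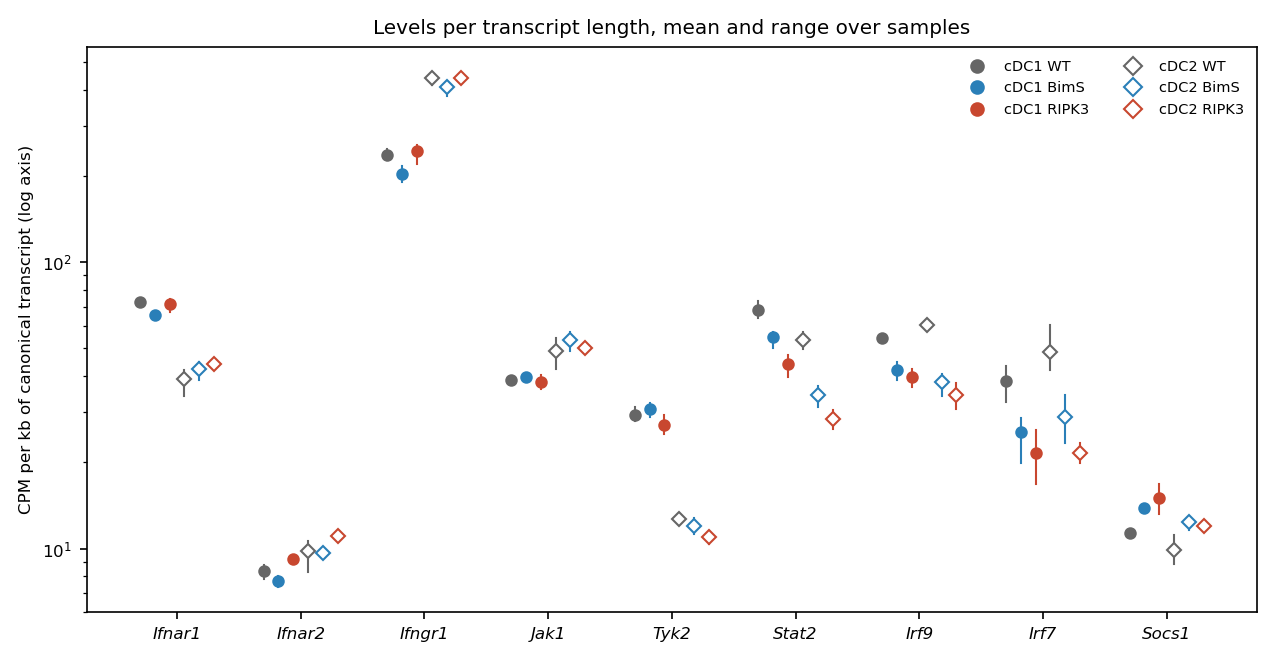
Level per transcript length (CPM per kb, log axis) of the 9 members in the 6 groups, as the group mean with the range of its samples. Ifngr1 is the highest in all groups, and Ifnar2, Socs1 and, in cDC2s, Tyk2 lie at the bottom.

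For Ifnar1, Ifngr1, Jak1 and Tyk2 the difference between the subsets was larger in size than any difference between media. Across all 17 samples with medium as a term, 7 of 9 members were called between cDC1s and cDC2s, 4 higher and 3 lower in cDC1s, beside 59.8% of all genes (30.4% higher, 29.4% lower), and 8 of 9 with the replicate block, beside 60.7%. Without the block, edgeR called 80.66% of the genes whose mean log2 CPM reached 3, a level that every member exceeded. The 7 of 9 members were not above that share. The subsets did not overlap for 4 members, beside 29.4% of all genes. Tyk2 was 2.44-fold higher in cDC1s (log2 difference 1.29 ± 0.045, adjusted p = 3.17e-21), with 124.2 to 158.9 CPM in cDC1s and 51.28 to 63.83 CPM in cDC2s. Ifnar1 was 1.68-fold higher in cDC1s (0.74 ± 0.048, adjusted p = 1.47e-14). Ifngr1 was 1.90-fold higher in cDC2s (-0.92 ± 0.043, adjusted p = 3.53e-18). For these 3 genes and Jak1, which was lower in cDC1s (-0.39 ± 0.044, adjusted p = 4.24e-09), the libraries of the subsets did not overlap.

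For the other members the libraries of the subsets overlapped. Stat2 was higher in cDC1s (0.55 ± 0.056, adjusted p = 2.06e-09), as was Socs1 (0.22 ± 0.052, adjusted p = 0.000549). Ifnar2 was lower in cDC1s (-0.27 ± 0.050, adjusted p = 2.0e-05), a call lost with limma on unnormalised log counts (-0.08, adjusted p = 0.34, lowest over alternatives 5.29e-07). Irf9 was at 0.05 (adjusted p = 0.481) and Irf7 at -0.19 (adjusted p = 0.209), which passed with limma (0.25, adjusted p = 0.00136) and with the replicate block (adjusted p = 6.36e-05), respectively, the highest over alternatives being 0.977 and 0.965.

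Whether the subsets differed in their response was tested by an interaction term over all 6 groups, positive where the change was more positive in cDC1s. For the change from WT to BimS medium, from WT to RIPK3 medium and from BimS to RIPK3 medium, edgeR called 0 of 9 members each time, beside 0.870%, 1.14% and 0.0314% of all genes (0.561%, 0.660% and 0.00% positive, 0.309%, 0.477% and 0.0314% negative). At an unadjusted p under 0.05 there were 3, 2 and 0 members, and DESeq2 and limma called 0. With the replicate block 3, 1 and 0 members were called, beside 2.32%, 2.35% and 0.141% of all genes. For BimS medium these were Ifnar1 at -0.27 (adjusted p = 0.341, 0.0428 with the block), Stat2 at 0.31 (0.312, 0.0236 with the block) and Irf9 at 0.28 (0.39, 0.0409 with the block). For RIPK3 medium it was Irf9 at 0.36 (adjusted p = 0.214, 0.0265 with the block). Over alternatives the highest adjusted p of these 4 was 1, 0.715, 0.788 and 0.791.

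Among the direct partners of these 9 genes, Usp18 encodes a protease that removes ISG15 and also binds IFNAR2 and dampens its signal. In cDC1s its level was 28.39, 26.51 and 27.18 CPM with WT, 20.07, 12.39 and 15.36 CPM with BimS, and 12.09, 6.977 and 12.49 CPM with RIPK3 medium. In cDC2s it was 25.35, 25.01 and 23.8 CPM with WT, 15.02, 9.355 and 14.02 CPM with BimS, and 7.308 and 4.923 CPM with RIPK3 medium. WT samples were the highest throughout, and in cDC2s the 3 media did not overlap. It fell in cDC2s with BimS (-0.96, adjusted p = 0.000509) and RIPK3 medium (-2.03, adjusted p = 1.8e-06) and from BimS to RIPK3 medium (-1.07, adjusted p = 0.0205). The last call was lost with filterByExpr (adjusted p = 0.0665) and without WT sample 2, BimS sample 1 or 3, or either RIPK3 sample (adjusted p 0.0512 to 0.716). In cDC1s it fell with RIPK3 medium (-1.39, adjusted p = 0.00784) and was at -0.78 with BimS medium (adjusted p = 0.0774, 0.000225 with the block, 6.66e-09 to 0.221 over alternatives). RIPK3 was at -0.60 from BimS medium there (adjusted p = 0.329, 0.0144 with the block, 2.58e-05 to 0.527 over alternatives). Ifngr2 and Jak2, the other chain and kinase of the interferon-γ receptor, were called by edgeR in no medium comparison. With the replicate block Ifngr2 was called in 3, at -0.13 for RIPK3 against WT in cDC1s (adjusted p = 0.0145), -0.14 for BimS against WT in cDC2s (adjusted p = 0.0127) and 0.15 for RIPK3 against BimS in cDC2s (adjusted p = 0.0263), and the highest over alternatives was 0.422, 0.663 and 0.995. Jak2 was called with the block in cDC2s, at -0.24 for RIPK3 against WT (adjusted p = 1.44e-06) and -0.18 for RIPK3 against BimS medium (adjusted p = 0.000477), the highest over alternatives being 0.774 and 0.978. Socs3, which restrains STAT3 signaling, rose in cDC1s with RIPK3 medium (0.26, adjusted p = 0.000467) and fell in cDC2s with BimS medium (-0.30, adjusted p = 0.0317). Both calls were lost with limma (adjusted p = 0.432 and 0.0819), and the second also without WT sample 2, any 1 BimS sample or either RIPK3 sample (adjusted p 0.0522 to 0.215). The block added 3 Socs3 calls, BimS against WT in cDC1s (0.13, adjusted p = 0.0485), RIPK3 against BimS in cDC1s (0.14, adjusted p = 0.0468) and RIPK3 against BimS in cDC2s (0.23, adjusted p = 8.74e-05), with up to 0.78, 0.893 and 0.956 over alternatives.

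**Figure D5:**
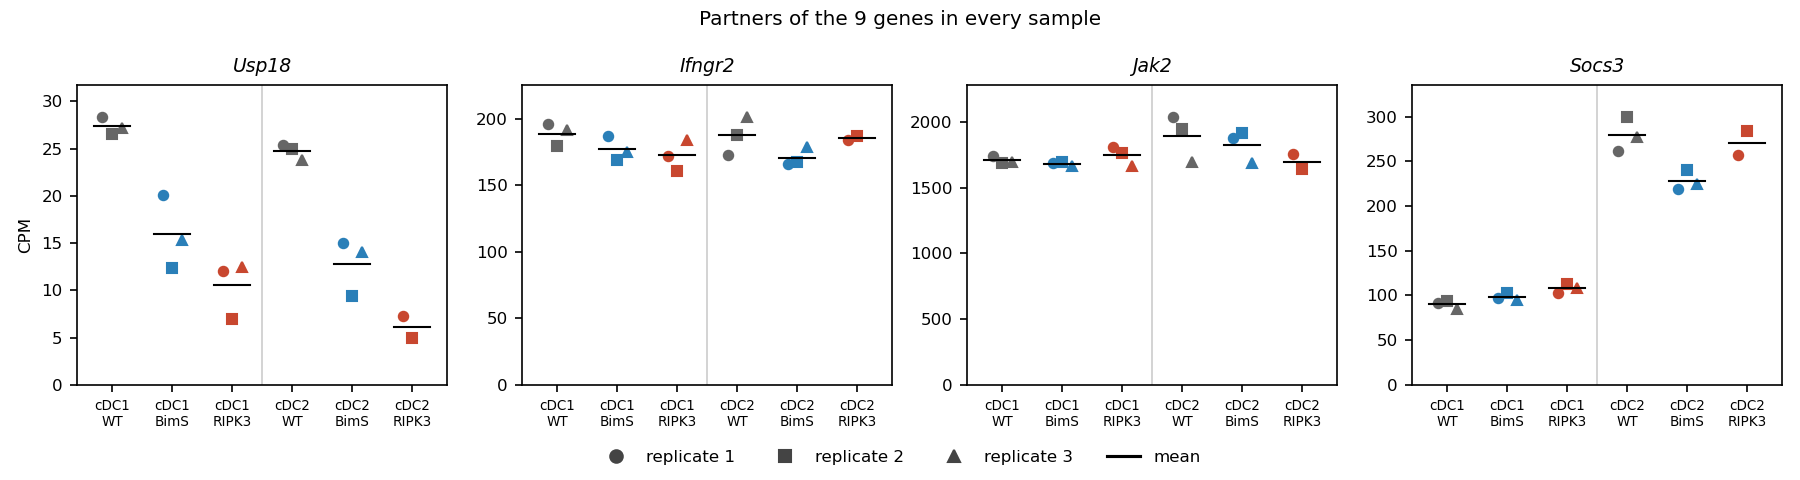
Level of the partner genes Usp18, Ifngr2, Jak2 and Socs3 (y axis, TMM-scaled CPM, a scale of its own per gene) in every library by cell type and medium (x axis), with a line at the group mean. The Usp18 means step down from WT to BimS to RIPK3 in both subsets, and Socs3 lies higher in cDC2s than in cDC1s.

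Other cytokine receptors, kinases and regulators were counted from lists of named genes. Of 13 other receptors, 3 rose and 4 fell in cDC1s with BimS medium and 1 rose and 4 fell with RIPK3 medium, at medians of -0.09 and -0.13 beside 0.00172 and -0.00565 over all genes, of which 13.2% and 16.5% were called. Ifnlr1, the specific chain of the interferon-λ receptor, fell from 2.94 CPM with WT to 1.48 CPM with BimS (-0.97, adjusted p = 0.0256) and 0.949 CPM with RIPK3 medium (-1.61, adjusted p = 0.000623). In cDC2s 2 rose and 1 fell with BimS and 1 rose with RIPK3 medium, beside 7.01% and 7.21% of all genes, among them Csf2rb, the shared GM-CSF receptor chain (0.34 and 0.30). Both Csf2rb calls were lost with limma (adjusted p = 0.25 and 0.649), the first also without BimS sample 1 or 2 (0.0678 and 0.0714) and the second without WT sample 2 or 3, BimS sample 1 or 2 or either RIPK3 sample (0.0569 to 0.281). The Ifnlr1 call with BimS medium was lost without WT sample 2 or 3 or BimS sample 1 or 3 (0.0779 to 0.118). Of 8 other JAK and STAT genes, 1 fell with BimS and 2 fell with RIPK3 medium in cDC1s, counts near the all-gene shares of 13.2% and 16.5%, among them Stat4, the STAT of interleukin-12 signaling (-0.24 and -0.27), whose BimS call was lost with limma (adjusted p = 0.118) and without WT sample 1 (0.099). In cDC2s edgeR called 0 of these 8 with either debris, with 2 and 0 at an unadjusted p under 0.05, 0 by DESeq2 or limma, and 2 and 5 with the replicate block. The shares of all genes called there were 7.01% and 7.21%, and 21.3% and 21.4% with the block.

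Of 10 further genes, 7 of other IRFs and 3 of IRF2-binding proteins, 2 rose and 1 fell in cDC1s with BimS medium, and 2 rose and 3 fell with RIPK3 medium (13.2% and 16.5% of all genes called). Those that rose were Irf1 and Irf2bpl, which encodes an IRF2-binding protein, and Irf2bp1 of the same family was among those that fell with RIPK3 medium. Irf8, the factor on which cDC1s depend, fell in cDC1s from 309 CPM with WT to 184 CPM with BimS (-0.75, adjusted p = 3.78e-12) and 176 CPM with RIPK3 medium (-0.82, adjusted p = 4.09e-13). In cDC2s 1 rose and 2 fell with BimS, and 2 rose and 1 fell with RIPK3 medium (7.01% and 7.21% of all genes called), with Irf2bp2 among the fallers and Irf2bpl among the risers. Irf4, the factor known from cDC2s, fell there from 37.0 CPM to 16.6 CPM (-1.16) and 13.0 CPM (-1.52). Irf1, which interferon-γ induces, rose in both subsets, by 0.48 and 0.44 in cDC1s and 0.52 and 0.44 in cDC2s with BimS and RIPK3 medium. The Irf1 call with RIPK3 medium in cDC2s was lost with limma (adjusted p = 0.316) and without RIPK3 sample 1 (adjusted p = 0.0824). Calls of the IRF2-binding proteins were lost too, Irf2bpl with RIPK3 medium with limma (adjusted p = 0.0966 in cDC1s, 0.0542 in cDC2s) and in cDC2s without RIPK3 sample 1 (0.126). Irf2bp1 lost its call with DESeq2, without any 1 WT sample and without RIPK3 sample 2 or 3 (0.0590 to 0.12), and Irf2bp2 without WT sample 2 or BimS sample 1 or 3 (0.0553 to 0.182).

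Of 18 other inhibitors of cytokine signaling, 1 rose and 3 fell in cDC1s with BimS, and 2 rose and 5 fell with RIPK3 medium, beside 13.2% and 16.5% of all genes called. Ptpn1, a phosphatase of JAK2 and TYK2, rose in cDC1s from 294 CPM to 452 CPM (0.62) and 428 CPM (0.54). In cDC2s 1 rose and 4 fell with BimS and 3 fell with RIPK3 medium, beside 7.01% and 7.21% of all genes, including Ptpn6, the phosphatase SHP-1, from 64.3 CPM to 34.1 CPM (-0.92) and 35.5 CPM (-0.87).

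Downstream, 39 listed ISGF3 targets were tested. In cDC1s 17 fell and 1 rose with BimS medium, 27 fell and 1 rose with RIPK3 medium, and 13 fell from BimS to RIPK3 medium. In cDC2s 29, 35 and 13 fell in these comparisons and 0 rose. The shares of all genes called lower were 5.89%, 8.19% and 2.21% in cDC1s and 3.21%, 3.28% and 0.218% in cDC2s. Calls between RIPK3 and BimS medium in cDC2s rested on both RIPK3 samples, since 0 genes of the whole table were called without RIPK3 sample 2 and 12 without RIPK3 sample 1. The medians were -0.44, -0.77 and -0.36 in cDC1s and -0.75, -1.49 and -0.58 in cDC2s, beside all-gene medians between -0.0216 and 0.00172. Eif2ak2, the antiviral kinase PKR, was at -0.75 and Trim30a, a negative regulator of NF-κB, at -0.71 in cDC1s with BimS medium. Ifi44 was at -1.04 with BimS (a call lost without BimS sample 1 or RIPK3 sample 1, adjusted p = 0.0732 and 0.0561) and -1.82 with RIPK3 medium in cDC1s and at -2.58 with RIPK3 medium in cDC2s. The gene that rose in cDC1s was Oasl1, an OAS-like protein known to restrain Irf7 translation.

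Of 18 tested interferon-γ targets, 2 rose and 3 fell in cDC1s with BimS, 1 rose and 12 fell with RIPK3 medium, and 7 fell from BimS to RIPK3 medium. In cDC2s 8, 13 and 4 fell and 0 rose. The shares of all genes called in either direction were 13.2%, 16.5% and 4.15% in cDC1s and 7.01%, 7.21% and 0.379% in cDC2s, and the 4 likewise rested on both RIPK3 samples. The medians were -0.18, -0.58 and -0.35 in cDC1s and -0.33, -0.69 and -0.42 in cDC2s. The GTPases that lead this list included Gbp7 (-1.49) and Gbp5 (-1.33) in cDC1s with RIPK3 medium, and Irgm1 (-0.93 and -1.50) and Igtp (-1.10 and -1.38) in cDC2s with BimS and RIPK3 medium. Cd274, the checkpoint ligand PD-L1, rose in cDC1s with BimS medium (0.28, adjusted p = 0.000101) and with RIPK3 medium, and Ciita, the class II transactivator, rose there with BimS medium (0.28, adjusted p = 0.000196). Both BimS calls were lost with limma (adjusted p = 0.115 and 0.133).

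Of 21 interferon ligand genes listed, 7 had a line in the table. Whether the other 14 had no reads or were filtered is not given in the sources used here. Of the 7, 6 had at most 3 reads in every library. Ifnb1, the gene of interferon-β, reached 4 reads. Only 2 ligand genes passed the filter, in cDC1s, where edgeR called 0 of 2 in each medium comparison, with 0, 1 and 0 at an unadjusted p under 0.05 and 0 by DESeq2 or limma. The libraries were made from sorted cDCs, not from the tumor cells that made the medium. Tumor RNA carried over with the debris was not tested.

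Promoters of the members were searched for the elements bound by the pathway. RefSeq windows from 250 bases before to 50 bases after each start (GRCm38.p6, each found exactly once in GRCm39, to which positions here refer) gave 10 windows for the 9 members. The ISRE core, GAAA and GAAA with any 2 bases between them on either strand, was in 3.44% of 32851 windows of that length, and the GAS core TTCNNNGAA in 8.30%. The ISRE core was found for Stat2 and Socs1 and the GAS core for Ifnar1 and Ifnar2. For Irf7, both windows of Irf9, Jak1, Tyk2 and Ifngr1 neither was found. A match is a description of the letters and not of binding, and no match says only that these letters are not in the window.

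The stretches with a match are shown with the match in capitals, 5′ to 3′ on the gene's strand, next to the upstream stretch of Irf7, the member with the largest fold changes, which has none. The Stat2 match starts 222 bases before the start site. The 2 overlapping Socs1 matches, GAAAGAGAAA and GAAACCGAAA, start 83 and 77 bases before the RefSeq start, inside an annotated exon. The Ifnar1 match starts 5 bases before, also inside an annotated exon, and the Ifnar2 match 214 bases before, outside annotated exons, as is that of Stat2. Positions are chr10:128106117-128106351 (plus strand) for Stat2, chr7:140846399-140846587 (minus strand) for Irf7, chr16:10603461-10603490 (minus strand) for Socs1, chr16:91282088-91282117 (plus strand) for Ifnar1 and chr16:91169447-91169476 (plus strand) for Ifnar2.
Stat2: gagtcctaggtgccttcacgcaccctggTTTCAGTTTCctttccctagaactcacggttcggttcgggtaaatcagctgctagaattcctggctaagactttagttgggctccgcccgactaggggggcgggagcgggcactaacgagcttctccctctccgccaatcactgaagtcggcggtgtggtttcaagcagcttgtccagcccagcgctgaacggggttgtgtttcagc
Irf7: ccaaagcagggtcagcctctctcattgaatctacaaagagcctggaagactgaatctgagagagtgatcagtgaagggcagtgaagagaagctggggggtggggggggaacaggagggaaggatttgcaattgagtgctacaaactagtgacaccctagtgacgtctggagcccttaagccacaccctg
Socs1: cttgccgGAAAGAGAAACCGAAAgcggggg
Ifnar1: ggcgggggcgTTCACGGAAggggcggggcg
Ifnar2: tgccaaggccTTCCTGGAAgaagagagtac

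The genes whose pattern was most like each member's were ranked over the 17 samples after the mean of each cell type was removed, among 7784 genes, as Pearson's r on log2 CPM. The 17 points share media and replicate numbers, so r is given as a description. For Stat2 these were Parp9 (0.986), Irgm1 (0.983) and Trim30a (0.981). For Irf9 they were Lgals3bp (0.967), Trim30a (0.96) and Stat2 itself (0.959), and for Irf7 Zbp1 (0.967), Cd40 (0.954) and Ogfr (0.952). Socs1 was closest to Fam133b (0.955), Ifnar1 to Phf2 (0.944) and Tyk2 to Rassf4 (0.942). For Ifngr1 the highest value was lower (Gpat4, 0.898). Between members r was 0.959 for Stat2 with Irf9, 0.931 for Irf9 with Irf7, 0.918 for Stat2 with Irf7 and -0.724 for Stat2 with Socs1.

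The subsets' own markers moved with the media. Of 8 cDC1 markers 3 rose and 2 fell in cDC1s with either debris (13.2% and 16.5% of all genes called). Xcr1 and Clec9a rose and Itgae and Wdfy4 fell with both. Of 6 cDC2 markers 1 rose and 1 fell in cDC2s with BimS medium, and 1 rose and 3 fell with RIPK3 medium (7.01% and 7.21% of all genes called). Markers of cells that the sorts should remove were low, and some moved with the media. Summed plasmacytoid DC markers, a cell type rich in Irf7, lay between 13.5 and 21.0 CPM in cDC1s, where Pacsin1 made up most of the sum and Siglech had at most 4 reads, and between 3.82 and 5.51 CPM in cDC2s, and edgeR called none of them in a medium comparison, while limma called 1 in cDC1s with RIPK3 medium and the block 1 with either debris there. Macrophage markers summed to 3.46 to 7.41 CPM in cDC1s with WT, 1.59 to 2.63 CPM with BimS and 2.93 to 5.12 CPM with RIPK3 medium, and to 5.08 to 12.8 CPM in cDC2s, with C1qc lower in cDC1s with BimS medium. For that comparison 7 macrophage markers were tested at a median of -1.61, with 3 called by limma, 4 by the block and 0 by DESeq2, and for RIPK3 against BimS medium in cDC2s the block called 4 of 8 and edgeR 0. Among B cell markers Fcrla was lower in cDC1s with RIPK3 medium, and among T and NK cell markers Cd3g was lower in cDC2s with BimS medium. Among neutrophil markers edgeR called none, while limma and the replicate block each called 1 in cDC2s with BimS medium. Among adherent tumor cell markers edgeR called none, while DESeq2, limma and the block each called 1 in cDC2s with RIPK3 medium, and limma and the block also made calls in other cDC2 comparisons. Their sum, 18.5 to 39.2 CPM in cDC2s, was mostly Cdh1. The part of these cells in the members' changes was not tested.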

How the data were processed

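PolyA RNA-seq of 17 sorted cDC samples was analysed from 1 table of read counts per gene, not normalized, as the authors deposited it. They trimmed reads with SeqPurge, aligned with STAR 2.7.10a to GRCm39 with Ensembl gene models and summed counts per gene with gensum. Reads carry no molecular identifiers, and 148 lines without a gene identifier (0.0258 to 0.0366% of counts) were left out. Of 31091 identifiers 30854 were named through GENCODE M39. Total counts per sample were 16095159 to 21645289.

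Groups followed the labels. Genes with a count in at least 50% of the samples of a fit were tested by edgeR 4.0.16 (R 4.3.3), with TMM factors and the robust quasi-likelihood test, Benjamini-Hochberg adjusted at 0.05, within each cell type, over all samples with medium as a term, and over 6 groups for interactions. Limma 3.58.1, the tool the study names, was run on log2(count + 1) without library scaling and at the same adjusted p as an alternative, beside DESeq2 1.42.0, RLE factors, filterByExpr, no filter, the replicate block and leaving out each sample. The fits were tested on simulated counts. Members and gene lists were chosen with earlier results of these data known. Of each list, the called genes with the largest change were open to naming (at most 5 per comparison), beside the direct partners of the members (Ifngr2, Jak2, Usp18, Socs3). A second table, the authors' log2 normalised values of these samples, was not used here. Some genes that these rules name are not reported here.

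Same-numbered samples deviated together within a cell type (correlation over 0.1 in 16 of 16 pairs, median 0.355, against 4 of 32 pairs of different number, median -0.187), so the numbers were taken as pairs there. The labels do not say what a number marks.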

Additional observations from a re-analysis of the deposited data

Results flagged for a closer look

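No member differed in its response between the subsets by the interaction test of edgeR. Several genes of the surrounding lists did, and each is given here because the interaction term itself passed the adjusted p of 0.05. A positive log2 value means a more positive change in cDC1s, and group means are in CPM in the order WT, BimS, RIPK3.

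Irf8 was at -0.78 for BimS (adjusted p = 0.0254, 5.13e-09 to 0.116 over alternatives) and -1.30 for RIPK3 medium (adjusted p = 0.000265), with 309, 184 and 176 CPM in cDC1s against 20.8, 21.3 and 29.1 CPM in cDC2s. Ptpn6 was at 1.095 for BimS (adjusted p = 0.000135) and 1.08 for RIPK3 medium (adjusted p = 0.000311), with 157, 177 and 183 CPM in cDC1s against 64.3, 34.1 and 35.5 CPM in cDC2s. Ptpn1 was at 0.51 (adjusted p = 0.00293) and 0.56 (adjusted p = 0.00157), with 294, 452 and 428 CPM against 335, 361 and 329.8 CPM, and both calls were lost with limma (adjusted p = 0.172 and 0.0691). Socs3 was at 0.42 for BimS medium (adjusted p = 0.0254, 0.000287 to 0.429 over alternatives), with 90.1 and 98.2 CPM against 279.6 and 228 CPM.

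Among ISGF3 and interferon-γ targets the change was more negative in cDC2s for each gene that passed. Oasl2 was at 0.87 for BimS (adjusted p = 0.0346, up to 0.141 over alternatives) and 1.25 for RIPK3 medium (adjusted p = 0.00361), with 109, 116 and 81.8 CPM in cDC1s against 303, 177 and 95.6 CPM in cDC2s. Dhx58, an RNA sensor of the RIG-I family, was at 0.86 (adjusted p = 0.00671) and 1.37 (adjusted p = 9.25e-05), with 45.9, 39.8 and 42.3 CPM against 41.1, 19.7 and 14.7 CPM. Samd9l was at 0.47 for BimS medium (adjusted p = 0.0436, 0.00377 to 0.375 over alternatives). For RIPK3 medium Mx2 was at 1.17 (adjusted p = 0.0349), Mx1 at 0.99 (adjusted p = 0.027), Rsad2 at 0.97 (adjusted p = 0.0313), Irgm2 at 0.74 (adjusted p = 0.0312) and Psmb8 at 0.45 (adjusted p = 0.0396). The highest adjusted p of these 5 over alternatives was 0.476, 0.32, 0.237, 0.281 and 0.208. No explanation of these differences was tested.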

How the results depend on the processing

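No member call turned its direction under any alternative. For RIPK3 against WT in cDC2s, where number 3 has no RIPK3 sample, the block moved several estimates. Irf7 went from -1.175 to -1.01 and Ifnar1 from 0.16 to 0.09. The uncalled Jak1 (0.03 to -0.05) and Ifngr1 (-0.01 to 0.02) changed sign. Of 90 member results each, DESeq2 left 88 on their side of the threshold, RLE factors 89, filterByExpr 89, no filter 86, limma 81 and the replicate block 68, where the other 22 gained a call. Leaving out 1 sample left 1045 of 1071. Ifngr2 between the subsets reversed with limma on log2(count + 1), from -0.01 to 0.18, a setting without library scaling that moved the all-gene median by 0.193 there and by -0.12, -0.173 and -0.104 for RIPK3 against WT in cDC1s and cDC2s and RIPK3 against BimS in cDC2s.

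Member counts moved with limma to 3 (cDC1 BimS against WT) and 1 (cDC1 RIPK3 against BimS), and with no filter to 1 (cDC2 RIPK3 against BimS). With the replicate block they became 6 (cDC1 RIPK3 against BimS), 7, 6 and 5 (the 3 cDC2 comparisons), and 3 and 1 (interactions of BimS and RIPK3 with WT). Of all genes, limma called 1510 where edgeR called 2576 (cDC1 BimS against WT), and 403 where edgeR called 810 and the block 1730 (cDC1 RIPK3 against BimS). In cDC2s the block called 4103 against 1349 for BimS and 4126 against 1387 for RIPK3 with WT. For RIPK3 against BimS in cDC2s the count of 73 became 141 (DESeq2), 46 (filterByExpr), 300 (no filter), 148 (limma) and 2755 (block). Interaction counts went from 166 to 261, 315, 67 and 443 for BimS (DESeq2, no filter, limma, block), from 217 to 371, 109 and 449 for RIPK3 (no filter, limma, block) and from 6 to 17, 25, 3 and 27 for RIPK3 against BimS medium.

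Without 1 sample, members called ranged over 4 to 5, 3 to 4 and 1 to 4 in cDC1s (BimS with WT, RIPK3 with WT, RIPK3 with BimS), over 2 to 4, 3 to 4 and 0 in cDC2s, 7 between subsets and 0 for interactions. All genes called ranged over 1987 to 3151, 2531 to 3314 and 489 to 1027 in cDC1s, 783 to 1504, 622 to 1819 and 0 to 214 in cDC2s, 11168 to 11439 between subsets, and 93 to 234, 111 to 258 and 0 to 10 for interactions. Leaving out a sample of the pair in cDC2s with RIPK3 medium leaves 1, which is assumed to vary like the others. Across cell types 19 of 24 pairs of the same number correlated over 0.1 (median 0.21) against 5 of 48 of different number (median -0.101).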
